A study of Mus musculus with 16 samples.

Results

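The MAP kinase phosphatases of the Dusp family were followed through the P4 mouse cochlea with and without loss of Lgr5+ supporting cells. The set holds 10 genes, Dusp1, Dusp2, Dusp4, Dusp5, Dusp6, Dusp7, Dusp8, Dusp10, Dusp14 and Dusp16, of the 47729 genes with values. They were chosen by gene symbol and by their CPM (reads on a gene scaled to a fixed library total) over the groups of these same libraries. Dusp8 was selected on its larger difference after damage in input than in IP, so its values in those comparisons are a description and carry no test. All 10 passed the filter on low values described below.

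The 16 libraries fall into 4 groups of 4, input and IP of control mice and input and IP of DTR mice, with 28089836 to 41966310 reads counted on genes per library. Control mice were GLAST CreERT/+; Rpl22 HA/+ and DTR mice were Lgr5 DTR/+; GLAST CreERT/+; Rpl22 HA/+. In both, tamoxifen-induced Cre under the GLAST (Slc1a3) locus tags the ribosomal protein Rpl22 with HA, so that an anti-HA IP enriches ribosome-bound RNA of cells in the greater epithelial ridge (GER) and of inner phalangeal cells. The DTR allele puts the diphtheria toxin receptor under Lgr5, so that diphtheria toxin (DT) kills Lgr5+ supporting cells. The methods give DT and tamoxifen at P1 to both genotypes, but the labels call the controls untreated. Each replicate pooled 8 cochleae of 4 mice, and each of the 8 pools gave 1 input library (5% of the homogenate, whole tissue) and 1 IP library (95%). Levels compared within one fraction therefore mix cells of many types in input, and in these bulk samples fewer cells of a type and less RNA per cell cannot be told apart.

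The libraries carried the markers of the labelled tissue. No gene of the hair cell, supporting cell, macrophage, Schwann cell, neuron, endothelial or mesenchyme lists was at 0 throughout a group. Lgr5 itself was lower in DTR libraries, with a log2 fold change (LFC) of -1.93 ± 0.15 (SE) in IP and -2.0 ± 0.15 in input, and 9 of 12 supporting cell and GER markers fell in each fraction. Macrophage and leukocyte markers went the other way: their summed level was 91.1 to 96.4 CPM in control input and 127 to 204 after damage, 15.6 to 24 and 35.2 to 54.1 in the IPs, and 5 of the 7 tested genes rose in each fraction. Schwann cell markers were also lower in DTR input (5 of 6 fell). These shifts in cell makeup accompany every difference between DTR and control given below, and their part in those differences was not tested.

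MAP kinase phosphatases end signalling by the ERK, JNK and p38 kinases by removing phosphate from both the threonine and the tyrosine of the activation loop. Many of them are themselves induced by the pathway they switch off, which makes them a feedback arm, and their transcripts are short-lived. By where they act and what they prefer they fall into nuclear inducible enzymes (Dusp1, Dusp2, Dusp4 and Dusp5), cytoplasmic ERK-selective enzymes (Dusp6 and Dusp7), enzymes selective for JNK and p38 (Dusp8, Dusp10 and Dusp16), and small atypical enzymes that lack the kinase-docking domain (Dusp14). In the developing cochlea FGF signalling through ERK is known for its part in supporting cell fate, and JNK for its part in the response of the sensory epithelium to damage.

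All 10 genes share a catalytic signature in which a cysteine forms the bond to phosphate and an arginine holds it. The 24 bases that encode it are shown for each gene because they define the family and differ between members, as read from GENCODE M21 transcripts (GRCm38), 5′ to 3′, with the cysteine codon and the arginine codon in capitals.
Dusp1: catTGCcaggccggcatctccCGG
Dusp2: cacTGCcaagctggcatctctCGC
Dusp4: cacTGCcaggccggcatctccCGA
Dusp5: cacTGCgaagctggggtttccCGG
Dusp6: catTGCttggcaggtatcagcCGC
Dusp7: cacTGCctagcaggcatcagcCGT
Dusp8: cacTGTctggctggcatctctCGC
Dusp10: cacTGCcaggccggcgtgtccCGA
Dusp14: cacTGTgcggcaggcgtgagcCGC
Dusp16: cacTGCttagctgggatctctCGC
For Dusp8 these bases lie at chr7:142083333-142083356 on the minus strand, in exon 6 of 7, and for Dusp1 at chr17:26506592-26506615 on the minus strand, in exon 4 of 4. Against Dusp1, these bases differ at 2 positions in Dusp4, 5 in Dusp2 and 10 in Dusp14. Against Dusp8 they differ at 3 positions in Dusp2, 4 in Dusp16 and 9 in Dusp5. The number of differing bases thus does not follow the classes above. A differing base need not change the encoded residue, and the residues were not compared. Over whole transcripts, the longest run of bases that any pair of members shared was 22 (Dusp7 with Dusp8, and Dusp7 with Dusp10), which is shorter than the 75-base reads. Gene models of some members overlap others: that of Dusp1 (chr17:26505590-26562128) spans part of Ergic1, which was listed at 166 to 335 CPM, that of Dusp10 overlaps the protein-coding 1700056E22Rik (0.31 to 2.55 CPM), and those of Dusp5, Dusp8 and Dusp16 overlap noncoding or antisense loci, so reads in shared stretches are uncertain.

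Promoter bases are shown for the 2 members with the largest differences after damage in input, Dusp8 and Dusp1, and for Dusp5, which has no such difference. The stretches are the bases before the RefSeq start (GRCm38.p6) that no GENCODE exon of the gene covers. Those of Dusp8 and Dusp1 lie inside the GENCODE gene models, which reach further upstream. Capitals mark each match to the cyclic AMP response element TGACGTCA (CRE) and to the CArG box, the site of serum response factor.
Dusp8 promoter (chr7:142095285-142095534, minus strand): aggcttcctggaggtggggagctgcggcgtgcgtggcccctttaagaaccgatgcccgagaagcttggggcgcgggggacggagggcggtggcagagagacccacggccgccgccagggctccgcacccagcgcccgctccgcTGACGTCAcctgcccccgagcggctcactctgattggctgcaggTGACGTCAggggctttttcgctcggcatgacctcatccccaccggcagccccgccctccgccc
Dusp1 promoter (chr17:26508520-26508722, minus strand): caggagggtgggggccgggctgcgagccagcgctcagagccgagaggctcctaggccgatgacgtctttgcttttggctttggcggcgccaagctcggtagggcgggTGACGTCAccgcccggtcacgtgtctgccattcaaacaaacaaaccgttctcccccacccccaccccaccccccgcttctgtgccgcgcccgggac
Dusp5 promoter (chr19:53528895-53529108, plus strand): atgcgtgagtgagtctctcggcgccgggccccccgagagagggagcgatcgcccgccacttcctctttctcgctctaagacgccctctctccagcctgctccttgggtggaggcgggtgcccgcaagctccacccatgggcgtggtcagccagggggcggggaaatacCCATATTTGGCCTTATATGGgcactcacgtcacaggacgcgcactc
The CRE sequence was present in Dusp8 with 2 matches, 107 and 63 bases before the start, and in Dusp1 with 1 match, 143 bases before it. It was searched as TGACGTCA, which reads the same on both strands, and 1.79% of all 32851 promoter windows of 300 bases (250 before to 50 after the start) held it. None of the other members with a window held a CRE match, Dusp16 among them, whose level was also higher in DTR input. Whether the CRE bears on the differences after damage was not tested. Dusp5 held 2 CArG boxes side by side, 82 and 72 bases before the start, a motif found in 1.63% of windows. TGANTCA (AP-1, 7.81% of windows) and CCGGAAG (ETS, 8.86%) matched none of the members, and the EGR motif (3.47%) matched 1 time, in Dusp2, with both strands searched. Windows were given for 9 of the 10 members, Dusp4 not among them. A match is a stretch of letters, and no binding was measured in these libraries.

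Per kilobase of exon, the ERK-selective enzymes led in the undamaged cochlea. In control input Dusp6 stood highest at 32.7 ± 2.27 CPM per kb (SD, n = 4), followed by Dusp7 at 23.7 ± 1.74 and Dusp14 at 11.2 ± 0.842, each clear of the next in all 4 libraries. Below them Dusp1, Dusp4, Dusp5, Dusp8, Dusp10 and Dusp16 followed from 5.60 down to 2.45 CPM per kb, with each overlapping its neighbour, and Dusp2 was last at 0.405 ± 0.150. In control IP the order was Dusp7 at 48.1, Dusp6 at 31.5 and Dusp1 at 31.1 CPM per kb, and Dusp6 and Dusp1 overlapped.
After damage Dusp8, seventh in control input, stood first in both fractions. It reached 46.3 CPM per kb in DTR input, where its lowest library (33.0) was above the highest of Dusp6 (29.5), and 63.3 in DTR IP, where it overlapped both Dusp1 at 47.3 and Dusp7 at 46.5. Dusp8 made up 4.14 ± 1.74% (SD, n = 4) of the summed level per kb of the 10 genes in control input and 32.7 ± 3.69% in DTR input, and 8.75 ± 3.19% in control IP and 28.9 ± 2.53% in DTR IP. The share of Dusp6 was 35.2 ± 1.54% in control input and 18.3 ± 2.35% in DTR input. The sum itself was 92.8 ± 3.85 CPM per kb in control input and 140 ± 16 after damage. In IP it was 161 ± 16.3 and 219 ± 33.7.

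**Figure D1:**
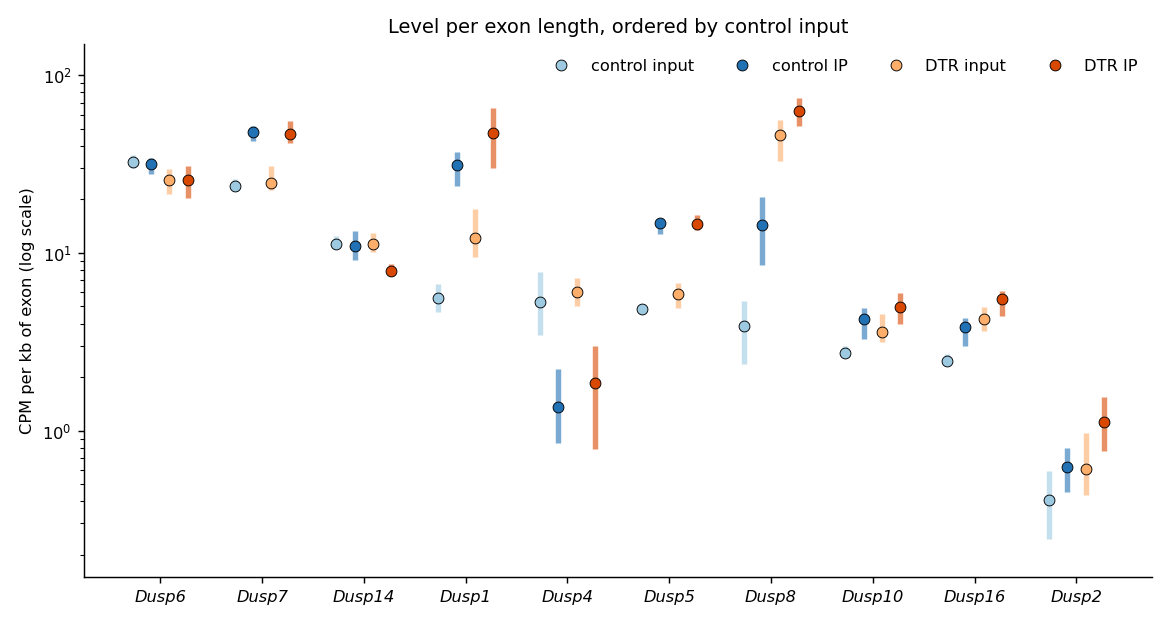
Level of each Dusp gene per kilobase of exon (CPM per kb, log scale) in the 4 groups. Points are means and bars run from the lowest to the highest of 4 libraries. Genes are ordered by control input, from Dusp6 at 32.7 to Dusp2 at 0.405, and Dusp8 moves from 3.87 in control input to 63.3 in DTR IP.

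The comparison of IP with input asks which transcripts are enriched on the ribosomes of GLAST-Cre+ cells relative to the whole tissue. Over both treatments it uses 8 IP against 8 input libraries, and it is orthogonal to the damage contrasts named in the selection, although the members were picked with all groups in view. A gene was called when its adjusted p from limma, with Benjamini-Hochberg adjustment over 16994 genes, was under 0.05 and its fold above 1.5. Of the 10 genes, 4 were enriched in IP (Dusp1, Dusp5, Dusp7 and Dusp8) and 1 was depleted (Dusp4), where 13.1% of all tested genes were called higher and 13.5% lower. The median LFC of the 10 was 0.56, beside -0.02 over all tested genes.
Markers of the targeted cells were mostly not enriched in the same comparison. Of 12 supporting cell and GER markers 2 were called higher in IP (Lfng at 1.55 ± 0.12 and Otog at 1.08 ± 0.11) and Lgr5 lower at -0.76 ± 0.11, and the median LFC of the list was -0.17. Slc1a3, whose locus drives the Cre, had an LFC of -0.23 ± 0.07. Markers of most other cell types were largely depleted, as given with Dusp4 below. Of 6 mesenchyme markers, however, only 1 was called lower, with a list median LFC of -0.25. Which cells the enriched Dusp RNA comes from was not tested.

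Dusp1, a nuclear enzyme that acts on p38, JNK and ERK, had the largest enrichment. Its control inputs read 22.1, 20.1, 15.4 and 16.5 CPM in replicates 1 to 4, and the control IPs of the same pools 122, 109, 102 and 78.7. In DTR mice the inputs read 58.3, 35.1, 35.3 and 31.2 CPM, and the IPs 216, 156, 154 and 100. Every IP library was above every input library. The LFC of IP over input was 2.20 ± 0.14 (SE), a 4.6-fold difference with a limma adjusted p of 4.8e-10. Counted from the most positive LFC, it stood at place 85 of the 16994 genes.

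Dusp5, a nuclear enzyme specific to ERK, was next. It read 11.6, 12.1, 12.7 and 11.4 CPM in control input and 31.5, 37.6, 38.5 and 37.4 in control IP. It read 16.7, 12.1, 13.1 and 16.2 in DTR input and 34.3, 34.9, 40.4 and 33.4 in DTR IP. The fractions did not overlap, with an LFC of 1.41 ± 0.09 (limma adjusted p = 3.9e-10). Between treatments Dusp5 stayed within narrow bounds, with LFCs of -0.06 ± 0.13 in IP and 0.25 ± 0.13 in input.

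Dusp4, a nuclear enzyme closely related to Dusp1, went the opposite way. Its control inputs read 21.4, 15, 9.41 and 12.1 CPM against 6.07, 3.26, 3.12 and 2.32 in the IPs. The DTR inputs read 19.8, 17.5, 13.7 and 15.3 against 8.19, 6.27, 2.15 and 3.81. All input libraries were above all IP libraries, and the LFC was -1.76 ± 0.22 (limma adjusted p = 2.1e-06), the same in control and in DTR pools. In the same comparison 10 of 12 hair cell markers, 5 of 6 Schwann cell markers, all 6 endothelial markers and all 7 tested macrophage markers were also lower in IP. So were 4 of 6 neuron markers and 1 of 6 mesenchyme markers, while the hair cell marker Atoh1 was higher (0.98 ± 0.17). Whether Dusp4 RNA comes from any of these cells was not tested.
Dusp2, the fourth nuclear enzyme and best known from immune cells, was the least abundant member at 0.492 to 3.08 CPM in the 16 libraries. Its LFC of IP over input was 0.58 ± 0.17 (limma adjusted p = 0.0070), just short of the 1.5-fold limit. It passed with edgeR and with DESeq2 at 0.78 in each, with a pseudocount of 0.1 (0.76), and without replicate 1 or 2 of control IP, replicate 3 or 4 of DTR IP, replicate 3 of control input or replicate 1 of DTR input (0.62 to 0.66). Its IP and input libraries overlapped.

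The 2 cytoplasmic ERK-selective enzymes parted. Dusp7 read 74.6 to 86.8 CPM in control input and 144 to 175 in the IPs of those pools, and 75.7 to 103 and 139 to 187 in the DTR pools. Its IP libraries lay above all inputs, with an LFC of 0.97 ± 0.08 (limma adjusted p = 8.4e-09).
Dusp6, a widely used readout of FGF and ERK activity, was at like levels in both fractions. It read 101, 103, 112 and 94.2 CPM in control input and 104, 107, 96.8 and 86.8 in control IP, with an LFC over both treatments of -0.01 ± 0.08 (limma adjusted p = 0.91) and bounds of -0.18 to 0.15 at 2 SE either side. In DTR libraries it read 92.5, 80.5, 80.5 and 67.3 CPM in input and 96.5, 80.2, 82.4 and 63.9 in IP. Every DTR input library was below every control input library, whereas the IP libraries overlapped, and the LFC after damage was -0.35 ± 0.12 in input and -0.32 ± 0.12 in IP. Between libraries of the same replicate number, which deviated together across treatments, the DTR IP level was 0.928, 0.751, 0.851 and 0.735 times that of control IP, below it in all 4 pairs. The selection used the damage contrasts and the animals of a pair differ, so the overlap and the ratios are a description only.

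Among the enzymes selective for JNK and p38, Dusp8 was enriched in IP with both treatments averaged, with an LFC of 1.2 ± 0.20 (limma adjusted p = 6.3e-05). The LFC of Dusp8 was 1.86 ± 0.29 in control pools but 0.54 ± 0.29 in DTR pools, where it was not called. Its IP and input libraries overlapped over both treatments, since DTR inputs lay above control IPs. Dusp10 had an LFC of 0.53 ± 0.11 (limma adjusted p = 5.9e-04) and Dusp16 of 0.46 ± 0.09 (limma adjusted p = 2.2e-04), both under 1.5-fold. Dusp10 passed 1.5-fold without replicate 2 of DTR input (0.59), and Dusp16 after a correction for length and GC content (0.60). Dusp10 read 7.86 to 9.07 CPM in control input and 9.91 to 15 in the IPs of those pools, and 9.60 to 13.8 and 12.1 to 18.2 in the DTR pools. The atypical Dusp14 had an LFC of -0.28 ± 0.10 (limma adjusted p = 0.024), also under 1.5-fold. Comparisons within the control pools or the DTR pools alone are not orthogonal to the damage contrasts named in the selection. Nothing is read from the counts of calls in them. In the control pools alone 6 of the 10 genes were called higher in IP (Dusp1, Dusp5, Dusp7, Dusp8, Dusp10 and Dusp16) and Dusp4 lower, where 13.1% of all genes were called higher and 13.4% lower. Dusp10 (0.62) and Dusp16 (0.60) lay at the fold limit there: neither was called without replicate 1 of control IP (0.56 and 0.55) or without replicate 3 (0.57 in each), Dusp16 was not without replicate 1 of control input (0.58), and Dusp10 was not without quantile normalization (0.58), with median centring (0.57) or after the correction for length and GC content (0.56). In the DTR pools alone 4 were called higher (Dusp1, Dusp2, Dusp5 and Dusp7) and Dusp4 lower, where 13.0% and 12.4% of all genes were called. The call of Dusp2 (0.70) was lost without replicate 1 or 2 of DTR IP or replicate 2, 3 or 4 of DTR input (0.59 to 0.70). It was also lost with a pseudocount of 1 (0.56), with no filter on low values (0.70) and after the correction for length and GC content (0.56).

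**Figure D2:**
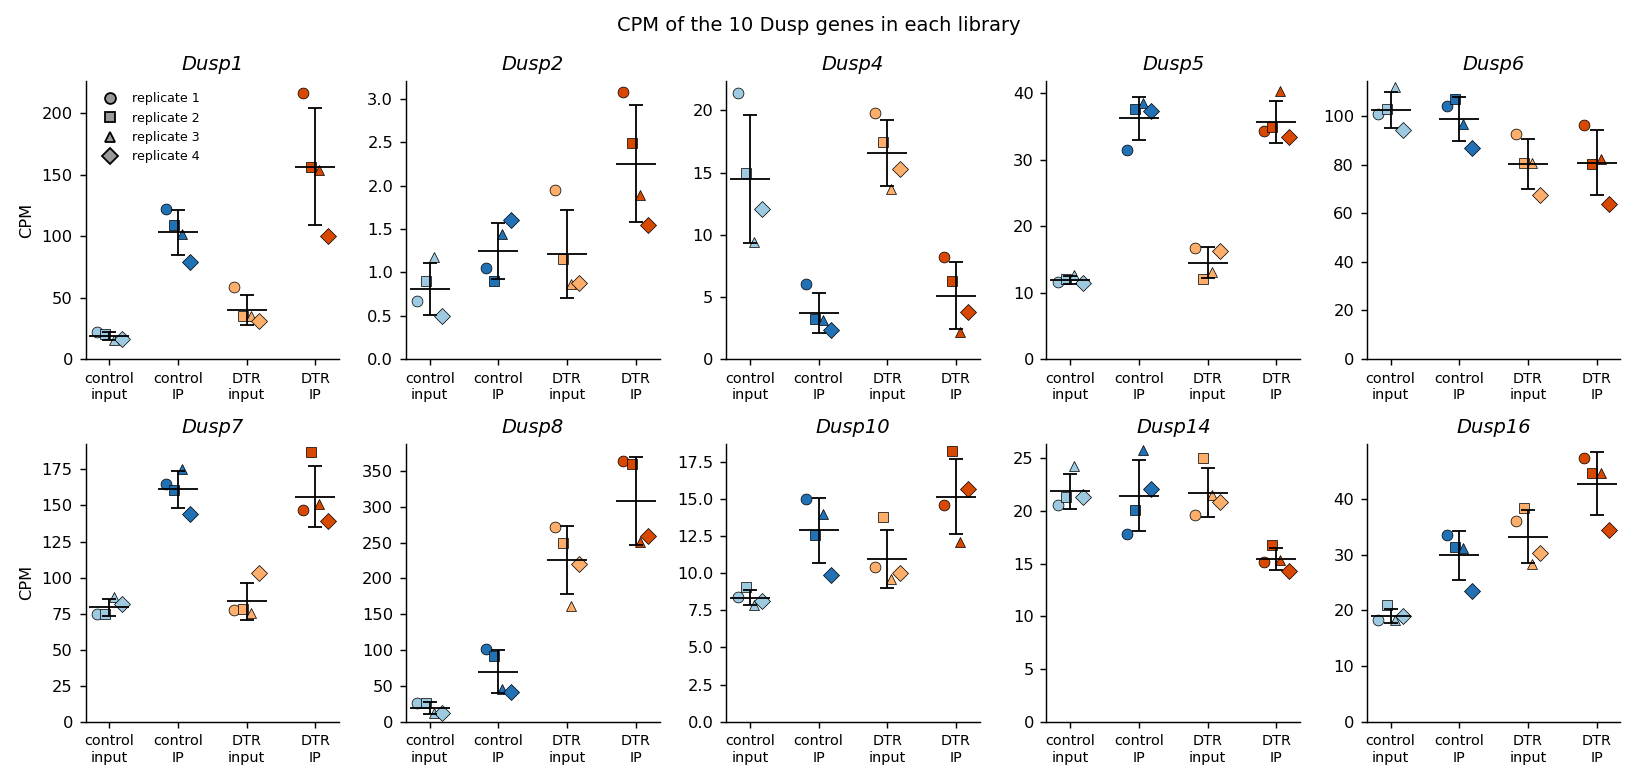
CPM of each Dusp gene (linear axis from 0) in the 16 libraries, by group, with replicates 1 to 4 as separate symbols. Horizontal bars are means and whiskers 1 SD over 4 libraries. Dusp1 and Dusp5 separate by fraction, Dusp4 in the reverse direction, and Dusp8 separates by treatment, from 11.5 to 26.1 in control input to 161 to 271 in DTR input.

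The comparison of DTR with control asks how the transcript levels differ at P4 once Lgr5+ cells have been targeted, in whole tissue and on the ribosomes of GLAST-Cre+ cells. Because the genes were picked from these comparisons, their values below are a description with no p, and the counts of calls that close the account are given only beside the shares over all genes. Nothing is read from overlap of libraries between treatments or from ratios by replicate number. No share of all genes is given for either. Dusp8 had the largest difference of the 10. It read 25.8, 26.1, 11.5 and 11.8 CPM in control input and 271, 250, 161 and 220 in DTR input. It read 101, 91.2, 45.9 and 41.6 CPM in control IP and 364, 359, 251 and 259 in DTR IP. The lowest DTR library was above the highest control library in both fractions. The LFC was 3.58 ± 0.29 in input, a 12-fold difference, and 2.26 ± 0.29 in IP, a 4.8-fold difference. Counted from the most positive LFC, Dusp8 was at place 22 in input and place 63 in IP among the 16994 genes.

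Dusp8 also differed between replicates of a group. Replicates 1 and 2 were above replicates 3 and 4 in each of the 4 groups, a pattern that 3.17% of tested genes showed, Dusp4 among them. With replicates 1 and 2 alone the LFC of Dusp8 was 3.22 in input and 1.96 in IP, and with replicates 3 and 4 alone it was 3.96 and 2.56. This split was chosen after the values were seen. Because DTR and control libraries did not overlap in either fraction, each set of pools had to show a difference, and nothing further is read from it.

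Dusp1, whose inputs and IPs are listed above, was higher in every DTR input than in any control input, with an LFC of 1.04 ± 0.20. Its IP libraries overlapped between treatments (78.7 to 122 against 100 to 216 CPM), with an LFC of 0.58 ± 0.20, and 0.76 without replicate 4 of DTR IP. Between libraries of the same replicate number the DTR IP level was 1.76, 1.44, 1.51 and 1.27 times that of control IP, above it in all 4 pairs. Dusp16, which acts on JNK and p38 in the cytoplasm, read 18.3, 20.9, 18.2 and 18.9 CPM in control input and 36, 38.4, 28.3 and 30.3 in DTR input. Its IPs read 33.6, 31.3, 31.2 and 23.4 CPM in control and 47.3, 44.6, 44.6 and 34.5 in DTR. Neither fraction overlapped between treatments, and the LFCs were 0.76 ± 0.12 in input and 0.48 ± 0.12 in IP.
Dusp14 had the most negative value in IP. It read 17.8, 20.1, 25.8 and 22.1 CPM in control IP and 15.2, 16.8, 15.3 and 14.3 in DTR IP, with no overlap and an LFC of -0.49 ± 0.14. In input it read 20.6 to 24.3 CPM in control and 19.6 to 25 in DTR, with an LFC of -0.02 ± 0.14. The other members had smaller LFCs in IP: 0.46 ± 0.24 for Dusp2, 0.22 ± 0.31 for Dusp4, -0.04 ± 0.11 for Dusp7 and 0.16 ± 0.16 for Dusp10. The value of Dusp2 depended on the pools, at 1.06 with replicates 1 and 2 alone and -0.12 with replicates 3 and 4 alone. By replicate number the IP ratios of Dusp2, Dusp4, Dusp5, Dusp7 and Dusp10 lay on both sides of 1.

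By count alone, 3 of the 10 genes passed the limits for a higher level in input (Dusp1, Dusp8 and Dusp16), where 5.05% of all genes were called higher and 3.79% lower. In IP 1 did, Dusp8, and Dusp1 joined it without replicate 4 of DTR IP, where 5.54% of all genes were called higher and 4.96% lower. Without quantile normalization 63.6% of the calls over all genes in IP were higher, against 52.8% with it. Since the choice of the genes used these contrasts, nothing is read from the counts.

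**Figure D3:**
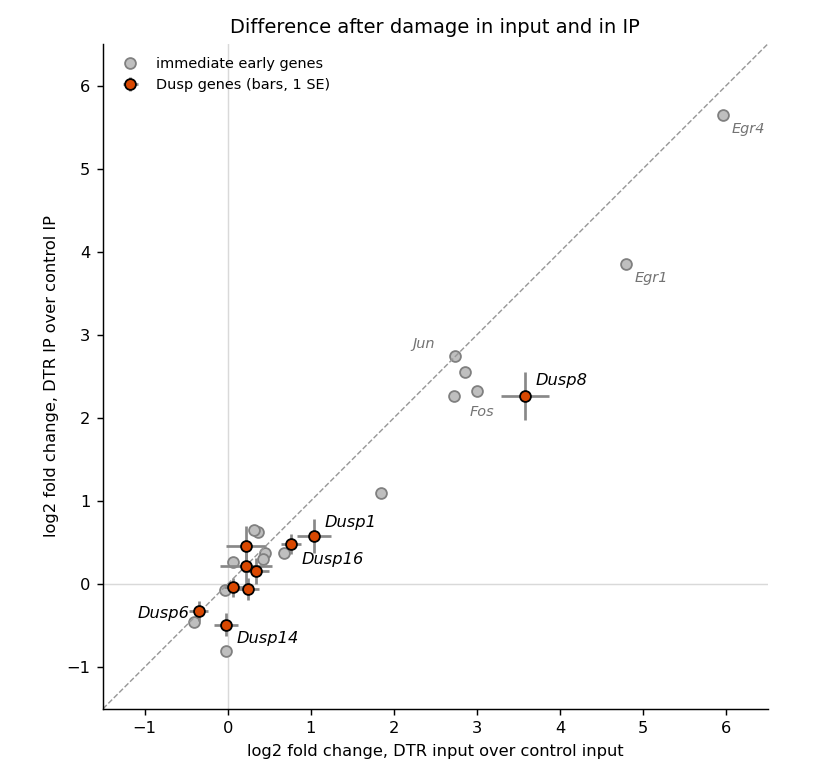
LFC after damage in input (horizontal) against that in IP (vertical) for the 10 Dusp genes, with bars of 1 SE, and for 16 immediate early genes in grey. The dashed line marks equal LFC in both fractions. Dusp8, at 3.58 and 2.26, lies below the line, as does Egr1 at 4.79 and 3.85.

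Dusp8 was named in the selection for a larger difference in input than in IP, and the ratio of IP to input in each pool shows its form. In the 4 control pools the Dusp8 level in IP was 3.49 to 3.98 times that in input (3.72 ± 0.253, SD, n = 4). In the 4 DTR pools it was 1.17 to 1.56 times (1.38 ± 0.163). The ratios did not overlap, and within a treatment they lay close together although the replicates differed in level. The difference of the damage LFCs (IP minus input) was -1.32 ± 0.40 (SE) in the main fit. That fit does not pair the IP and input of a pool, so its SE includes the spread between pools.
Dusp1 and Dusp14 also had ratios that did not overlap. All 3 of these members had the lower ratios in DTR pools, where over all genes with a ratio in every pool 2.43% were without overlap and lower in DTR and 2.77% without overlap and higher. Because the choice of the genes used this difference, nothing is read from that count. For Dusp1 they were 4.76 to 6.62 in control and 3.20 to 4.45 in DTR pools, and for Dusp14 0.864 to 1.06 and 0.673 to 0.775. For Dusp6 they were 0.868 to 1.04 and 0.948 to 1.04, and for Dusp7 1.76 to 2.20 and 1.35 to 2.39. The difference of the damage LFCs was positive for Dusp2 (0.24 ± 0.34) and Dusp6 (0.04 ± 0.16), 0.00 for Dusp4 and negative for the other members, and its median was -0.23, beside -0.01 over all tested genes.
The members were not tested for this difference. Over all genes limma called 0.0% higher and 0.0118% lower for it, with 870 genes at an unadjusted p under 0.05, 0 called by edgeR and 49 by DESeq2.

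**Figure D4:**
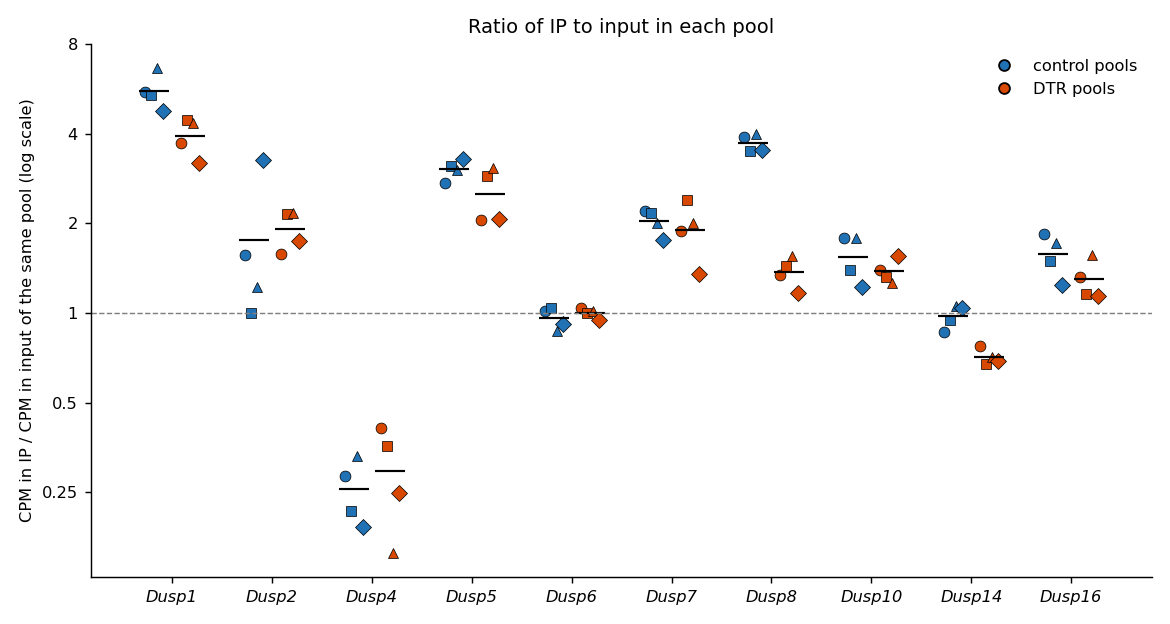
Ratio of the CPM in IP to the CPM in input of the same pool (log scale) for each Dusp gene, with 4 control and 4 DTR pools. Symbols give the replicate, horizontal bars the mean, and the dashed line equal levels. Dusp8 lies at 3.49 to 3.98 in control pools and at 1.17 to 1.56 in DTR pools, and Dusp6 lies near 1 in both.

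The rest of the pathway was summarised by lists chosen with earlier results of these data known. Of 13 MAP kinases, limma called 0 after damage in IP (2 at an unadjusted p under 0.05) and 1 in input, Mapk12 at 0.60 ± 0.16, named after its value was seen. Mapk12 lay at the fold limit in both fractions: its input call was lost with a pseudocount of 1 (0.55), without replicate 1 of DTR input (0.52) and without replicate 4 of control input (0.55). In IP it had an LFC of 0.54 ± 0.16, and was called with edgeR and DESeq2 (0.64 in each), without quantile normalization (0.65), with median centring (0.61), without replicate 2 of DTR IP (0.60) and without replicate 4 of control IP (0.60). Of 10 MAP kinase kinases and RAF kinases, limma, edgeR and DESeq2 called 0 in IP and 0 in input, with 4 and 2 at an unadjusted p under 0.05. Of 13 stress MAP3 kinases, which feed JNK and p38, Zak alone was called higher in the main fit. Its LFC was 0.98 ± 0.11 in IP (limma adjusted p = 4.7e-06) and 0.94 ± 0.11 in input (limma adjusted p = 8.1e-06). Map3k6 (0.62 ± 0.26 in IP), named after its value was seen, was also called higher in IP with DESeq2 (1.0). Zak is the kinase that senses stalled ribosomes.
Between fractions, where 13.1% of all genes were called higher in IP and 13.5% lower, 7 of the stress MAP3 kinases were enriched in IP and 3 depleted (1 after the correction for length and GC content), with a list median LFC of 0.59, and Map3k1 led at 1.66 ± 0.14 (limma adjusted p = 1.6e-08), with Map3k3 at 1.43 ± 0.08. Of the MAP kinases 4 were enriched, led by Mapk8, which encodes JNK1, at 1.29 ± 0.15 (limma adjusted p = 1.3e-06) and Mapk6 at 1.17 ± 0.12. None was called lower, but Mapk9 was with median centring (-0.59) and without replicate 2 of control IP, replicate 1 of DTR IP or replicate 3 of control input (-0.62 to -0.60), and Mapk10 with the pool as a replicate block (-0.79) and without replicate 4 of DTR input (-1.05). No MAP kinase kinase or RAF kinase was called, with 5 at an unadjusted p under 0.05 and 0 called by edgeR or DESeq2, and Araf was called higher after the correction for length and GC content (0.62).

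Genes downstream of the kinases were summarised as immediate early genes and as genes of ERK feedback and output. Of 16 immediate early genes, which code for transcription factors and other proteins induced within minutes of kinase activation, 8 rose and 1 fell in DTR IP, where 5.54% of all genes were called higher and 4.96% lower, and 8 rose in DTR input, where 5.05% were called higher. The list median LFC was 0.64 in IP and 0.57 in input, beside medians of 0.00 and -0.02 over all tested genes. The count of risers ran from 7 to 9 in IP and from 7 to 8 in input over the alternative settings. Fosl1 and Fosl2 are named after their values were seen. Fosl1 (0.63 ± 0.19 in IP) was not called with a pseudocount of 1 (0.48), with no filter (0.63) or with the compared groups alone (0.63). Its call was also lost without replicate 1, 2 or 4 of DTR IP or replicate 3 or 4 of control IP (0.55 to 0.62). Fosl2 (0.65 ± 0.23 in IP) was called with DESeq2 (0.70) and with the replicate block (0.65). It was also called without quantile normalization (0.75), with median centring (0.71), and without replicate 1 of DTR IP (0.78) or replicate 3 of control IP (0.77). Egr4 was at 0.00 to 0.262 CPM in control IP and 11.6 to 64.7 in DTR IP, and 3 reads correspond to 0.0715 to 0.107 CPM. Egr1 read 42.2 to 58.4 CPM in control IP and 324 to 1130 in DTR IP (LFC 3.85 ± 0.40, limma adjusted p = 1.4e-06), and Jun, the transcription factor activated by JNK, read 36.8 to 52.3 and 228 to 341 (LFC 2.75 ± 0.18, limma adjusted p = 3.9e-09).
Of 15 tested genes of ERK feedback and output (Sprouty, Spred and Etv genes among them) limma called 0 in DTR IP, with 4 at an unadjusted p under 0.05 and 0 called by edgeR or DESeq2, and Spry2 was called lower without replicate 4 of control IP (-0.78). Over all genes 5.54% were called higher and 4.96% lower in IP, and 5.05% and 3.79% in input. In DTR input 1 of the 15 was called higher, Il17rd at 0.60 ± 0.15, named after its value was seen. That call was lost with median centring, a pseudocount of 1 or DESeq2 (0.58 in each) and without replicate 1 or 4 of DTR input or replicate 2 or 4 of control input (0.53 to 0.58), and blocking by replicate number made Spry2 a lower call (-0.68). The difference between these lists was not tested. Between fractions 4 of them were enriched in IP, led by Epha4 at 1.17 ± 0.12 and Spry2 at 0.88 ± 0.17, and 1 was depleted. Among 14 tested dual-specificity phosphatases outside the set, Dusp3, an atypical phosphatase of ERK and JNK, rose in DTR IP from 27.1 to 34.8 CPM in controls to 60.3 to 72.1 (LFC 1.04 ± 0.11, limma adjusted p = 1.2e-06), and Dusp18 fell (LFC -0.76 ± 0.11, limma adjusted p = 9.9e-05).

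**Figure D5:**
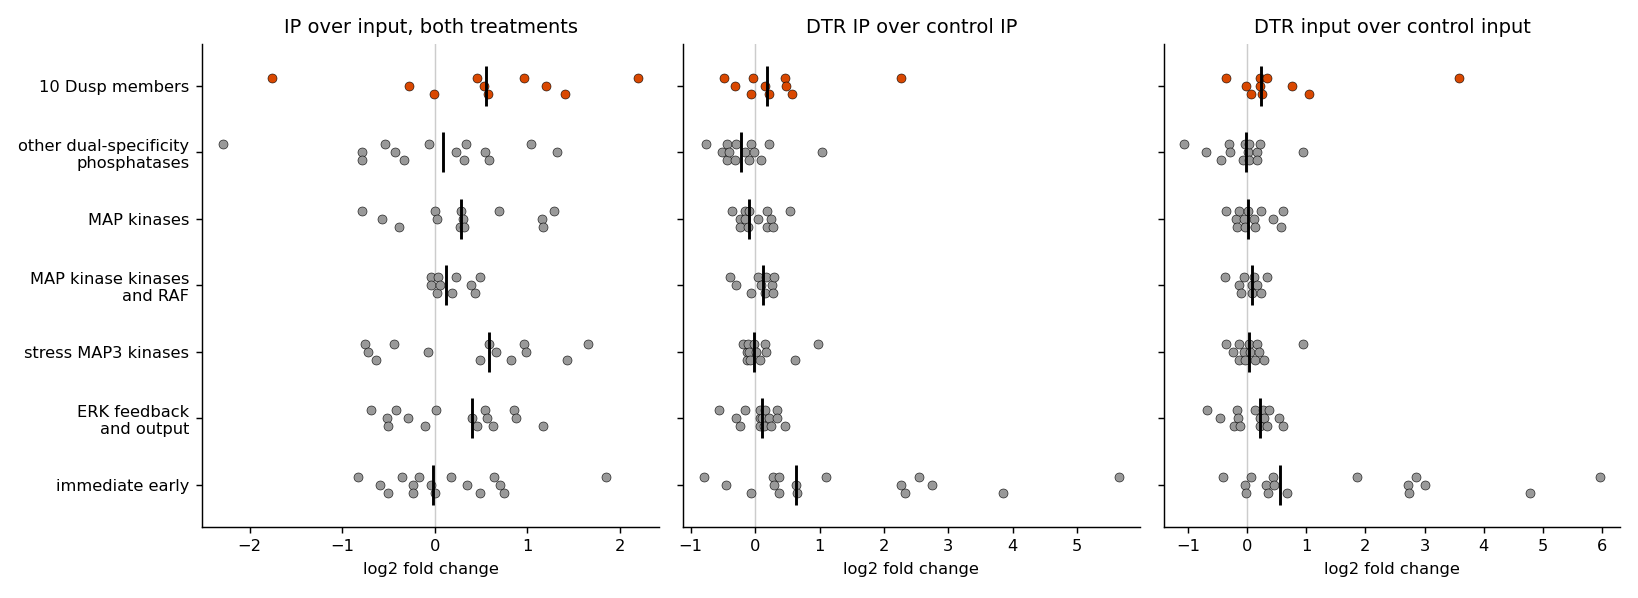
LFC of the 10 Dusp genes (top row) and of the genes of 6 pathway lists, 1 point per tested gene, in IP against input over both treatments and in DTR against control within IP and within input. Vertical bars are list medians. The immediate early genes spread furthest to the right after damage, and the MAP kinase kinases and RAF kinases stay between -0.39 and 0.34 there.

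By likeness over the 16 libraries, the 5 genes closest to Dusp8 in Pearson r of log2 values were Slc25a25 (r = 0.966), Gzmm (0.958), Bbc3 (0.951), 1810032O08Rik (0.949) and Pim3 (0.949). The libraries form 4 groups, so r mostly reflects the group means: with each group centred, r with Dusp8 was 0.55 for Slc25a25 and 0.04 for Bbc3. Slc25a25, a mitochondrial carrier of ATP-Mg and phosphate, averaged 60.4 CPM in control input, 122 in control IP, and 225 and 236 in the DTR groups. Bbc3, the pro-apoptotic protein Puma, averaged 8.79, 23.7, 36.9 and 55.9 CPM in the same order, and Pim3, a serine/threonine kinase, 44.8, 65.0, 129 and 138. Within the set, Dusp16 was the member most like Dusp8 (r = 0.92), and Dusp6 the least (r = -0.65).
The 5 genes closest to Dusp6 were Ppp2r2b (r = 0.879), Siah1a (0.879), Asb13 (0.879), E330013P04Rik (0.872) and Zcchc18 (0.865). With each group centred these were 0.72 to 0.84, so that they also varied with Dusp6 between replicates. Ppp2r2b, a regulatory subunit of protein phosphatase 2A, averaged 81.6 CPM in control input and 57.2 in control IP, against 18.5 and 14.6 in the DTR groups. These lists were picked by their likeness and carry no test.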

How the data were processed

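RNA of P4 mouse cochleae was sequenced with 75-base paired-end reads (SMART-Seq v4) in 4 groups of 4 libraries. Alignment by the authors was to GRCm38 with HISAT2 (version 2.0.4; the labels name TopHat) and counting with HTSeq. The deposited values are CPM, with each library summing to 1000000. The annotation release and strand setting are not given in the sources used here. In the deposited CPM, 100.0% of values above 0 were whole multiples of 1 read (tolerance 0.01), which gave back the counts used in edgeR and DESeq2. A count of 3 reads was 0.0715 to 0.107 CPM, which covers counting error only.

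CPM were quantile normalized over 16 libraries and tested as log2(CPM + 0.5), so fold changes of low genes are understated. A gene was tested if all 4 replicates of some group reached 0.5 CPM (16994 genes). Group means were compared with limma (version 3.58.1, R 4.3.3; mean-variance trend, two-sided, Benjamini-Hochberg). Of 50316 genes listed, 2587 were NA throughout. Printed CPM are as deposited, and CPM per kb use the union of exons in GENCODE M21. The procedure was tested on simulated data. Libraries of the same number come from 1 pool of the same animals in IP and input, and their deviations correlated (at least 0.288 in every pair). Libraries of the same number in control and DTR mice come from different animals, but their deviations correlated too (at least 0.291). The main fit used group means without a block, so its SEs and adjusted p ignore both pairings. Only the alternative fit with a replicate block used them, with the pool as the block between fractions and the replicate number after damage. The replicate labelled 4 carries the number 6 in the file headers.

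Members and gene lists were chosen with earlier results of these data known. Named were all members, of each pathway list at most 3 called genes with the largest LFC in DTR IP against control IP and 2 in IP against input, and the 5 genes most like Dusp8 and Dusp6. Alternatives were other scalings, pseudocounts, filters, fits, edgeR (version 4.0.16) and DESeq2 (version 1.42.0), a replicate block, a correction for length and GC content, and each library left out.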

Additional observations from a re-analysis of the deposited data

Results flagged for a closer look

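In 3 of the 40 combinations of gene and group 1 of the 4 libraries stood far from the others relative to the range of its group, and chance alone gives about 1 in 20. Dusp1 in DTR input was 58.3 CPM in replicate 1, against 31.2 to 35.3 in the others. Dusp5 in control IP was 31.5 CPM in replicate 1, against 37.4 to 38.5. Dusp7 in DTR input was 103 CPM in replicate 4, against 75.7 to 78. Without that DTR input replicate 1 the LFC of Dusp1 after damage in input was 0.87, beside 1.04 with it. Without replicate 1 of control IP, Dusp5 was still called in control pools, and without replicate 4 of DTR input, Dusp7 was still called in DTR pools.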

How the results depend on the processing

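IP against input kept its 5 called members, with their direction, under every alternative run but 1: when no overlap was required, Dusp8 was dropped and 4 were left. Otherwise the calls held, with LFCs of 2.12 to 2.3 for Dusp1, 1.1 to 1.29 for Dusp8 and -1.88 to -1.6 for Dusp4 when single libraries were left out. The LFC of Dusp6, near 0 in the main comparison, changed sign with edgeR (0.00) and with replicates 1 and 2 alone (0.04), and ran from -0.06 to 0.03 with single libraries left out. On the adjusted p alone 9 members and 9144 genes were called in IP against input, 6787 genes in control pools, and 8 members and 6656 genes in DTR pools. With a fold, an adjusted p and no overlap, 2435 genes were called in IP against input. In DTR IP against control IP 1 member was called, 3 on the adjusted p alone (Dusp8, Dusp14 and Dusp16), 2 with replicates 1 and 2 alone (Dusp2 and Dusp8), 2 with replicates 3 and 4 alone (Dusp8 and Dusp14), and 1 to 2 with single libraries left out, where Dusp1 joined Dusp8 without replicate 4 of DTR IP. With replicates 3 and 4 alone, chosen after seeing the data, 1004 genes were called in IP and 571 in input, with fewer samples in the fit. For the difference between fractions 2 genes were called, 1 without quantile normalization, 0 with a pseudocount of 0.1, 0 with no filter, 0 with edgeR, 49 with DESeq2, 0 with replicates 1 and 2 alone, 1 with replicates 3 and 4 alone and 0 to 6 with single libraries left out. With the pool as a replicate block, 40 genes were called for that difference. The paired fits, with the pool as the block between fractions and the replicate number after damage, changed no member call in the other comparisons. The cause of these changes was not tested. Fits of the compared groups alone do not exist for IP against input over both treatments, which uses all groups. Depth limits Dusp2 most, at 0.492 to 3.08 CPM where 3 reads are 0.0715 to 0.107 CPM.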
